A study of Homo sapiens with 11 samples.

Results

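MiR-21 is a microRNA (miRNA) made from 1 hairpin, whose 5′ and 3′ arms give the mature forms hsa-miR-21-5p and hsa-miR-21-3p. Both were taken by name, and they are 2 of the 2588 mature miRNAs listed for every library. Small RNAs were sequenced from 6 untreated parental cell lines derived from solid tumours: A549 from lung cancer, ES2 from ovarian cancer, MV3 from melanoma, PANC1 from pancreatic cancer, BE(2)C from neuroblastoma and HepG2 from liver cancer. The study asked which miRNAs these lines express, since IGF2BP1, an RNA-binding protein, was studied there as a factor that keeps miRNAs from acting on its target mRNAs. Each line gave 2 libraries except PANC1, which gave 1. All lines grew with 10% FBS, BE(2)C in a mixture of EMEM and DMEM/F12 and the others in DMEM, and were harvested 48 h after seeding, although the protocol gives 24 h for BE(2)C where its sample label gives 48 h. Libraries of A549, ES2, MV3 and PANC1 were made from 50 ng of total RNA with a NEXTflex kit, whereas those of BE(2)C and HepG2 were made by Novogene and sequenced on another instrument. Between these sets, the effect of the preparation and that of the line cannot be told apart. In comparisons with BE(2)C, HepG2 included, the same holds for its medium and, if the protocol is right, its harvest time.

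A miRNA hairpin is cut out of a longer transcript by Drosha and trimmed to a short duplex by Dicer, after which 1 strand, the guide, is kept by an Argonaute protein and the other, the passenger, is mostly lost. For miR-21 the guide comes from the 5′ arm. The guide is among the most studied miRNAs in tumours and is known to repress mRNAs of tumour suppressors such as PDCD4. Its gene MIR21 (ENSG00000284190.1) lies on the forward strand of chromosome 17 at positions 59841266 to 59841337 (GRCh38). The same stretch is part of the protein-coding gene VMP1 (ENSG00000062716.13, 59707192 to 59842255, also forward), which encodes a membrane protein of autophagy. Of the annotated VMP1 transcripts, 10 reach the hairpin, and all 10 have an exon there, which is annotated as untranslated in 8 and as coding in 0.

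A miRNA finds its targets mainly through its seed, bases 2 to 8. Only 1 other mature sequence of the RefSeq miRNA table (GRCh38.p14) has the seed of miR-21-5p, and both are shown because reads of either would act on the same seed matches. Seeds are in capitals.

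hsa-miR-21-5p: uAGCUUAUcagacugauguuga
hsa-miR-590-5p: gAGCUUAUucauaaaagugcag

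MiR-21-5p occupies chr17:59841273-59841294 and miR-590-5p chr7:74191213-74191234, both on the forward strand. Outside the seed the sequences diverge, with 8 of 22 positions equal over the full length. Among the 2369 other mature sequences of the table, the lowest edit distance to miR-21-5p was 7, reached by 4 of them. MiR-590-5p gave 0 to 23 reads in a library, at most 4.79 counts per 1000000 miRNA reads (CPM), so that miR-21-5p held between 99.97% and 100% of the reads with this seed in every library.

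Libraries held 1173902 to 12137452 reads assigned to mature miRNAs (median 2670030), and levels are given as CPM, the count of a miRNA per 1000000 of these reads. A share of reads does not separate fewer molecules per cell from fewer cells that hold them, and its counting intervals and floors cover counting error only. Of the marker miRNAs of the tissues of origin, the neuronal miR-9-5p (16715 CPM) and miR-218-5p (78501 CPM) were high in BE(2)C, where the neuronal miR-124-3p had 22.9 CPM. The hepatocyte marker miR-122-5p had 64.0 and 50.01 CPM in the HepG2 libraries, and 823 CPM in 1 BE(2)C library but 5.96 CPM in the other. The melanocyte marker miR-211-5p had 0 reads in all libraries, MV3 included, the acinar markers miR-216a-5p and miR-217 had 0 in PANC1, and the muscle marker miR-1-3p reached 6273 CPM in PANC1. The blood cell marker miR-451a had 299 and 46.0 CPM in the BE(2)C libraries and a mean of at most 3.79 CPM in the other lines, miR-142-3p 306 CPM in ES2, and miR-223-3p at most 0.971 CPM in any library. The epithelial markers were low throughout, with line means of 21.8 to 79.6 CPM for miR-200c-3p and at most 4.79 CPM in a library for miR-141-3p, and the muscle marker miR-206 had at most 5.72 CPM. The part of these markers in the miR-21 values was not tested. The 2 BE(2)C libraries had the highest chi-square per degree of freedom of any pair of replicates (849 over 807 miRNAs). This measure grows with the number of reads. The HepG2 pair, with more reads than BE(2)C, had 59.2. The pairs of A549, ES2 and MV3 had 8.53 to 15.6 with fewer reads, so their values are not on a like footing.

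In all 7 NEXTflex libraries, miR-21-5p ranked 1. In A549 it had 650347 and 641725 CPM, that is 65.0% and 64.2% of all miRNA reads (95% Wilson intervals 64.98% to 65.09% and 64.11% to 64.24%). In ES2 it had 282176 and 270352 CPM (28.2%, 28.15% to 28.29%, and 27.0%, 26.98% to 27.09%). In MV3 it had 331546 and 321096 CPM (33.2%, 33.07% to 33.24%, and 32.1%, 32.04% to 32.18%). A single miRNA thus filled at least 27.0% of every NEXTflex library. PANC1 had 335307 CPM (33.5%, 33.50% to 33.56%). In HepG2 it had 166574 and 189665 CPM (16.7%, 16.64% to 16.68%, and 19.0%, 18.94% to 18.99%) and ranked 2. In BE(2)C it had 12460 and 12749 CPM (1.25%, 1.24% to 1.25%, and 1.27%, 1.27% to 1.28%) and ranked 17 and 20. No libraries of different lines overlapped, but with 1 or 2 libraries per line this alone does not separate lines. The higher MV3 library (331546 CPM), for example, lay close to PANC1 (335307 CPM). How many other miRNAs lacked overlap was not counted. Replicates differed most in HepG2, where the higher library had 1.139 times the level of the lower.

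Set against the most abundant other miRNA of the same library, miR-21-5p was 14.5 and 12.4 times as frequent in A549, where let-7a-5p, a member of the tumour-suppressive let-7 family, came next with a mean of 48294 CPM. The same let-7a-5p followed in ES2, MV3 and PANC1, and miR-21-5p was 2.12 to 3.28 times as frequent there. In HepG2 it stood at 0.221 and 0.261 times miR-148a-3p, which alone took 739220 ± 19263 CPM (SD, n = 2). In BE(2)C it stood at 0.107 and 0.0890 times miR-381-3p, a miRNA of the imprinted chromosome 14 cluster. The lead over the next miRNA was therefore widest in A549 and was absent in both Novogene lines.

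**Figure D1:**
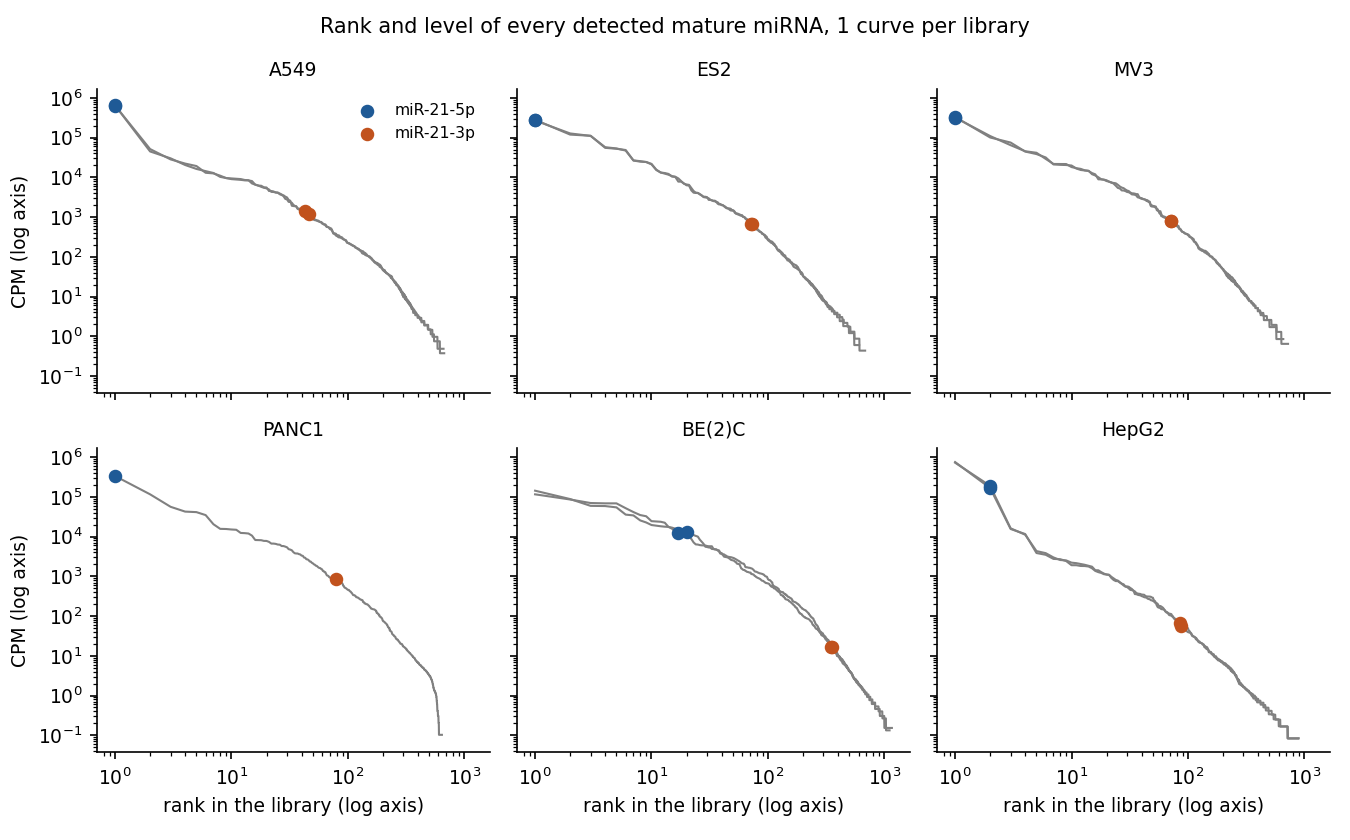
Level in CPM against rank for every detected mature miRNA, both on log axes, with 1 grey curve per library and 1 panel per line; the points mark miR-21-5p (blue) and miR-21-3p (orange). MiR-21-5p sits at rank 1 in the 7 libraries of A549, ES2, MV3 and PANC1, at 2 in HepG2 and at 17 and 20 in BE(2)C, and miR-21-3p sits between rank 43 and rank 357.

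The level of miR-21-5p differed between the lines. By mean CPM the order was A549, PANC1, MV3, ES2, HepG2 and BE(2)C, and the highest mean was 51.3 times the lowest. A moderated F test on log2(CPM + 1) over the 6 lines gave an adjusted p of 2.44e-07 (limma, Benjamini-Hochberg over 546 miRNAs), and 99.3% of the tested miRNAs passed the same test at 0.05. Within the 4 NEXTflex lines the adjusted p was 0.000152 (limma), where 85.4% of 453 miRNAs passed. After rescaling with TMM factors, which aim to centre each library on the bulk of its miRNAs, the values were 2.13e-07 and 0.000146 (limma). Since almost every miRNA passed over the 6 lines, passing this test does not set miR-21 apart.

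Among the NEXTflex lines, A549 stood above the other 3. On the log2(CPM + 1) scale, miR-21-5p was higher in A549 than in ES2 by 1.23 ± 0.15 (SE; adjusted p = 0.000253, limma; 50.5% of miRNAs passed in this pair). It was higher than in MV3 by 0.99 ± 0.15 (adjusted p = 0.000953, limma; 57.3% passed). It was higher than in PANC1 by 0.95 ± 0.18 (adjusted p = 0.00450, limma; 43.8% passed), the spread of the single PANC1 library being taken from the other lines. With TMM factors these differences grew to 1.54, 1.79 and 1.68, while the median of all miRNAs moved from -0.17, -0.47 and -0.61 to 0 in the same pairs. A median of exactly 0 is a tie. The 546 miRNAs include some with 0 reads in both lines of a pair, whose difference is 0 on either scale. ES2, MV3 and PANC1 were not separated: ES2 minus MV3 was -0.24 (adjusted p = 0.267, limma; 32.8% passed), ES2 minus PANC1 -0.28 (adjusted p = 0.234, limma; 57.3% passed) and MV3 minus PANC1 -0.04 (adjusted p = 0.928, limma; 53.1% passed). The sign of the first and second of these turned with TMM factors (0.24 and 0.14).

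BE(2)C had the lowest level on either scale. MiR-21-5p was higher by 5.68 in A549 (51.3-fold; adjusted p = 7.42e-08, limma; 76.7% passed) and by 4.45 in ES2 (adjusted p = 1.37e-07, limma; 77.5% passed). It was higher by 4.69 in MV3 (adjusted p = 1.36e-07, limma; 78% passed) and by 4.73 in PANC1 (adjusted p = 6.17e-07, limma; 71.2% passed). Against HepG2, which shares the preparation, BE(2)C was lower, with a difference of -3.82 ± 0.15 (SE; adjusted p = 2.13e-07, limma; 83% passed), whereas the median miRNA was higher in BE(2)C by 2.79. With TMM factors the difference from HepG2 was -6.83, where the median miRNA was still higher in BE(2)C by 0.49. The differences of the NEXTflex lines from BE(2)C then lay between 4.42 and 6.21, where the median miRNA lay between -0.88 and -0.67. TMM factors thus did not fully centre the median miRNA in pairs with BE(2)C. Only 22 of 546 miRNAs had a larger difference in favour of A549 over BE(2)C than miR-21-5p, and only 24 a larger one in favour of HepG2 over BE(2)C.

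The position of HepG2 depended on how libraries were brought to one scale. On CPM it lay below all 4 NEXTflex lines: A549 was higher by 1.86 (adjusted p = 1.44e-05, limma; 67.6% passed), ES2 by 0.64 (adjusted p = 0.00576, limma; 60.8% passed), MV3 by 0.88 (adjusted p = 0.000946, limma; 69.6% passed) and PANC1 by 0.92 (adjusted p = 0.00218, limma; 75.1% passed). Without ES2 replicate 1 or 2 the difference from ES2 no longer passed (0.61, adjusted p = 0.0674, and 0.67, adjusted p = 0.0569, limma). The median of all miRNAs was also lower in HepG2 on this scale, by 1.02 to 2.58 relative to the same lines. With TMM factors, 0.166 and 0.217 in HepG2 against 1.02 to 1.87 in the other libraries, HepG2 became the line with the highest level: A549 minus HepG2 was -0.62 (adjusted p = 0.0135, limma) and the other 3 lines minus HepG2 were between -2.41 and -2.16. In TMM-scaled CPM the 2 HepG2 libraries stood at 1002290 and 873772 and those of A549 at 637498 and 581454, followed by ES2 (214108 and 204198), PANC1 (190020), MV3 (181781 and 171352) and BE(2)C (8598 and 7896). A value above 1000000 is possible because TMM does not hold the total fixed. The 10 most abundant miRNAs, miR-21-5p among them, took 91.9% and 92.2% of the HepG2 reads and 22.1% to 77.3% in the other libraries.

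**Figure D2:**
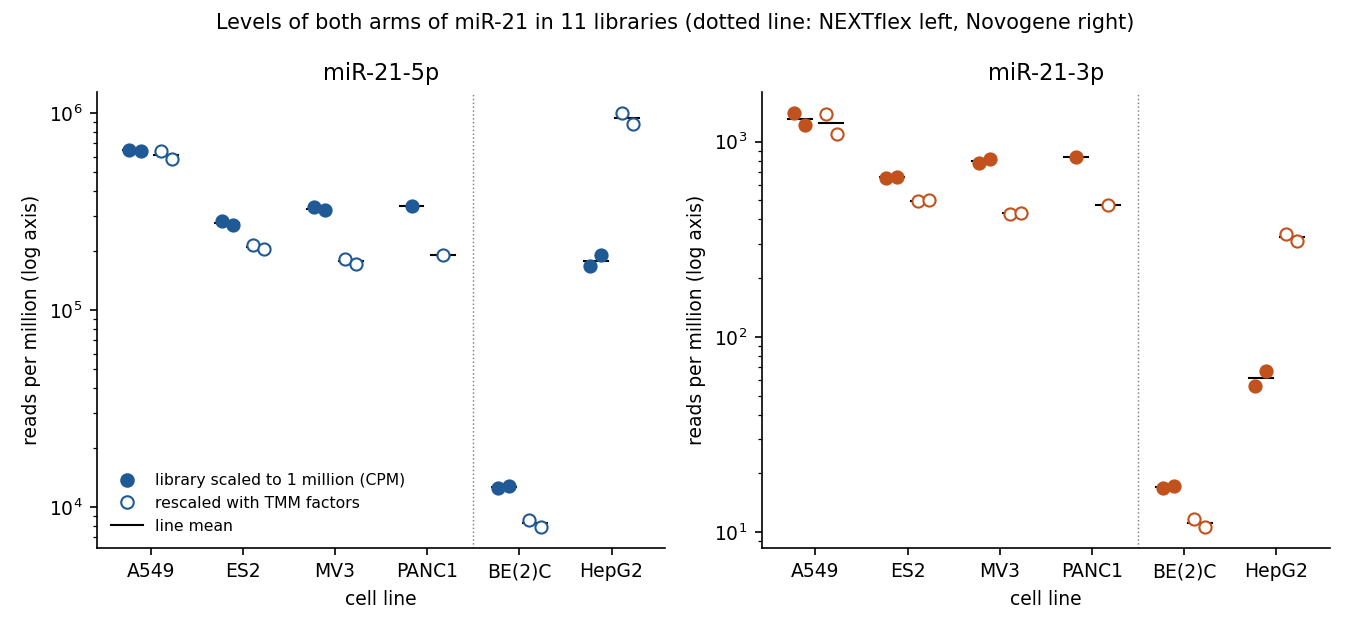
Level of miR-21-5p (left) and miR-21-3p (right) in each of the 11 libraries on a log axis in CPM, filled points for CPM, open points after TMM rescaling, and bars for the line mean. The open points lie below the filled ones in each line except HepG2, where the mean of miR-21-5p moves from 178119 to 938029.

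Of the 15 pairs of lines, 12 passed for miR-21-5p on CPM and 12 with TMM factors, 8 of them in the same direction on both scales and 4, those of HepG2 with the NEXTflex lines, in opposite directions. For scale, 59.1% of all tests over the 15 pairs and 546 miRNAs passed with TMM factors. On CPM, between 32.8% and 83% of the miRNAs passed in a pair. How many other miRNAs turned direction between the scales was not counted. For miR-21-3p 12 pairs passed on CPM and 11 with TMM factors, and the 11 had the same direction on both.

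MiR-21-3p, the passenger strand, was present in every library at a far lower level. In A549 it had 1406 and 1213 CPM (3755 and 2500 reads), in ES2 653 and 661 CPM, and in MV3 780.3 and 812 CPM. PANC1 had 838 CPM from 8164 reads. HepG2 had 56.2 and 67.0 CPM and BE(2)C 16.9 and 17.1 CPM, the latter from 127 and 112 reads. These are shares of 0.121% to 0.141% in A549 and 0.00169% to 0.00171% in BE(2)C. Even as a passenger it ranked 43 and 46 in A549, between 72 and 79 in ES2, MV3 and PANC1, 88 and 85 in HepG2, and 347 and 357 in BE(2)C.

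The order of the lines on CPM was that of the 5p arm, with the highest mean 77.0 times the lowest. The F test gave an adjusted p of 1.31e-07 over 6 lines and of 0.00151 over the NEXTflex lines (limma), and with TMM factors 2.17e-07 and 0.000846. A549 was again above ES2 by 0.99 ± 0.16 (SE; adjusted p = 0.00125, limma), above MV3 by 0.71 ± 0.16 (adjusted p = 0.00642, limma) and above PANC1 by 0.64 ± 0.19 (adjusted p = 0.0315, limma). The call against PANC1 was lost without A549 replicate 1 (0.53, adjusted p = 0.116, limma). ES2, MV3 and PANC1 did not separate (adjusted p between 0.170 and 0.822, limma), and the sign of ES2 minus MV3 and of ES2 minus PANC1 turned with TMM factors.

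BE(2)C had the lowest miR-21-3p as well: A549, ES2, MV3 and PANC1 were higher by 6.18, 5.19, 5.47 and 5.54 on the log2 scale (adjusted p between 7.42e-08 and 4.28e-07, limma). BE(2)C minus HepG2 was -1.79 on CPM and -4.74 with TMM factors (adjusted p = 1.69e-05 and 1.36e-07, limma). Unlike the 5p arm, the 3p arm of HepG2 remained below that of A549 on both scales, by 4.39 on CPM and by 1.93 with TMM factors (adjusted p = 3.33e-07 and 2.61e-05, limma). For ES2, MV3 and PANC1 the difference from HepG2 shrank from 3.40, 3.68 and 3.75 on CPM to 0.62, 0.41 and 0.55 with TMM factors, where the value for MV3 no longer passed (adjusted p = 0.0714, limma).

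**Figure D3:**
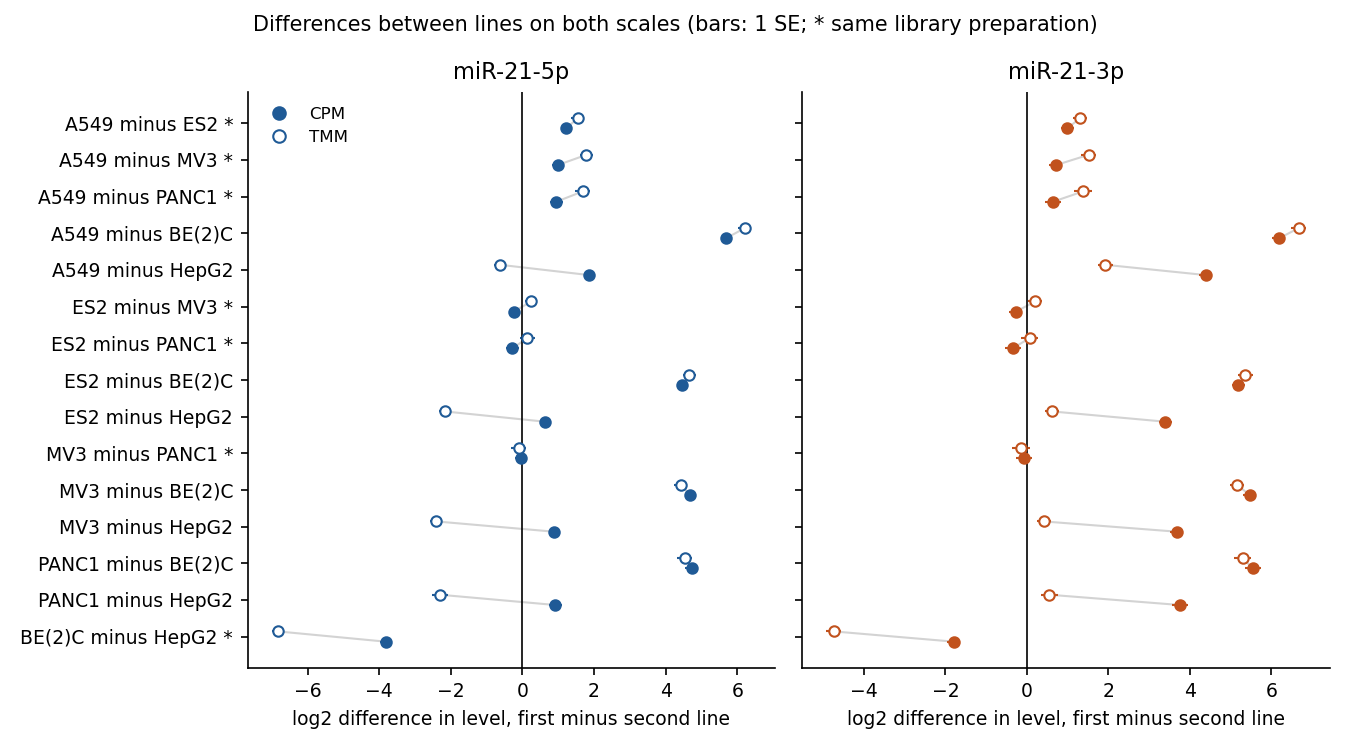
Log2 difference in level for the 15 pairs of lines, miR-21-5p left and miR-21-3p right, filled points for CPM and open points for TMM, bars for 1 SE; an asterisk marks pairs with the same library preparation. The points of miR-21-5p cross 0 for the 4 pairs of a NEXTflex line with HepG2 and for ES2 minus MV3 and ES2 minus PANC1, whereas those with BE(2)C stay on one side.

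The ratio of the arms compares both strands of 1 hairpin within a library, so it does not change with scaling. For each miR-21-3p read there were 462 and 529 miR-21-5p reads in A549, with 95% counting intervals of 448 to 477 and 509 to 550.1. There were 432 and 409 in ES2, 425 and 395 in MV3, and 400.3 in PANC1. The 7 NEXTflex libraries thus lay within 395 to 529. BE(2)C had 738 and 744, with intervals of 620.2 to 878 and 619 to 896 from few 3p reads. HepG2 had 2963 and 2832, with intervals of 2746 to 3196 and 2643 to 3033. In HepG2 the passenger strand made up 0.0337% and 0.0353% of the reads of both arms, against 0.134% to 0.252% in the other libraries.

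**Figure D4:**
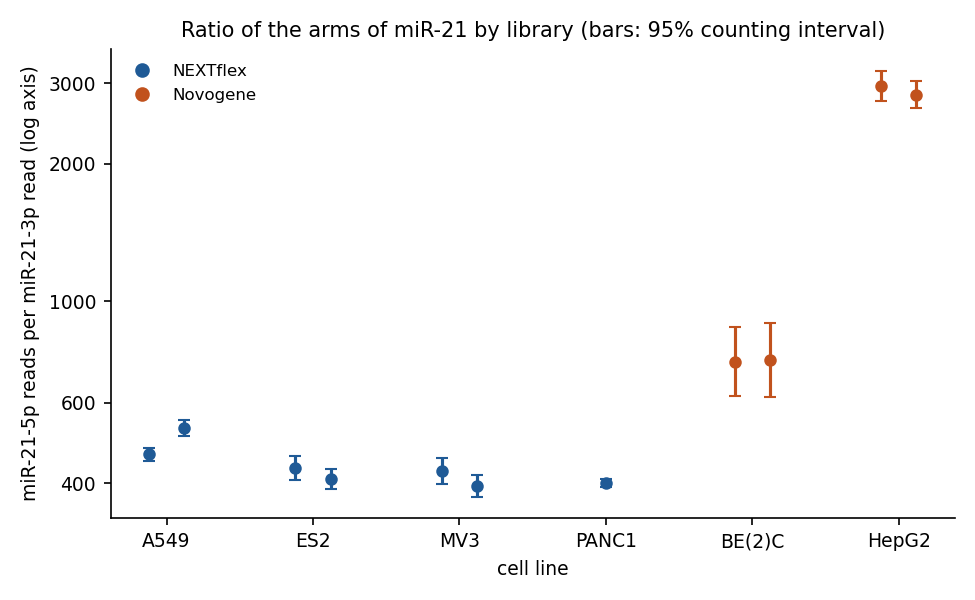
Number of miR-21-5p reads for each miR-21-3p read in the 11 libraries on a log axis, blue for NEXTflex and orange for Novogene libraries, with 95% counting intervals. The HepG2 libraries stand at 2963 and 2832, the BE(2)C libraries at 738 and 744, and the NEXTflex libraries between 395 and 529.

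The log2 arm ratio differed between the 6 lines (adjusted p = 0.00302, limma over 92 hairpins), as did that of 73.9% of the hairpins. Hairpins were filtered on the reads of both arms together, so a single arm could have few reads. Within the NEXTflex lines no difference was detectable (adjusted p = 0.845, limma), where 17.4% of the hairpins passed. An exact permutation test of the miR-21 ratio alone, over 10395 assignments of the 11 libraries, gave p = 0.00202 (smallest possible 0.0001), and over the 105 assignments of the 7 NEXTflex libraries p = 0.2 (smallest possible 0.00952). On the log2 scale the ratio in HepG2 exceeded every other line: A549 minus HepG2 was -2.55 (adjusted p = 0.00139, limma; 47.8% of hairpins passed), ES2 minus HepG2 -2.78 (adjusted p = 0.000857, limma; 54.3%), MV3 minus HepG2 -2.82 (adjusted p = 0.000818, limma; 55.4%) and PANC1 minus HepG2 -2.85 (adjusted p = 0.00219, limma; 51.1%). With the preparation shared, BE(2)C minus HepG2 was -1.97 ± 0.42 (SE; adjusted p = 0.0137, limma), a 3.92-fold difference, and 28.3% of hairpins passed. This call was lost without HepG2 replicate 1 (-1.94, adjusted p = 0.0694, limma) or replicate 2 (-2.0, adjusted p = 0.0709, limma), while the value hardly moved.

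With the 92 hairpins, BE(2)C did not pass against any NEXTflex line: A549 minus BE(2)C was -0.58 (adjusted p = 0.287, limma; 50% of hairpins passed), ES2 minus BE(2)C -0.81 (adjusted p = 0.149, limma; 48.9%), MV3 minus BE(2)C -0.85 (adjusted p = 0.138, limma; 48.9%) and PANC1 minus BE(2)C -0.88 (adjusted p = 0.201, limma; 46.7%). These calls depended on which hairpins shared the fit. Among the 15 hairpins with at least 50 reads of each arm in every library, a filter added after seeing the data, the same differences passed against A549 (adjusted p = 0.000506, limma; 73.3% of the 15 passed), ES2 (adjusted p = 7.28e-05, limma; 73.3%), MV3 (adjusted p = 6.97e-05, limma; 73.3%) and PANC1 (adjusted p = 0.000240, limma; 80%). BE(2)C minus HepG2 then had an adjusted p of 2.46e-07 (limma; 53.3%), and within the NEXTflex lines the F test still did not pass (adjusted p = 0.243, limma). The SE of BE(2)C minus HepG2 was 0.09 in this fit and 0.42 with all 92 hairpins. Replicates of a line differed in the miR-21 log2 ratio by 0.01 to 0.19, against a median over the 92 hairpins of 0.26 to 0.80.

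Compared with other hairpins, miR-21 was among those with a higher ratio of 5p to 3p reads in each line. Its ratio ranked 12 of 92 in A549 and ES2, 7 in MV3, 17 in PANC1, 7 in BE(2)C and 4 in HepG2. In a line, 53 to 56 of the 92 were dominated by the 5p arm. A hairpin with few reads cannot reach a high ratio, so these ranks also depend on abundance. The 6 line means of miR-21 spanned 2.85 on the log2 scale, less than the median span of 3.75, and 59 hairpins had a wider one. However, only 15 of the 92 had at least 50 reads of each arm in every library. Counting error can widen the span of the rest, so these spans do not show that the miR-21 ratio varied less than is typical. Hairpins in general were not shifted one way in HepG2: 24 of the 92 had their highest ratio there and 24 their lowest. The dominant arm of miR-21 was the 5p arm in every line, whereas 13 hairpins changed the dominant arm between lines.

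**Figure D5:**
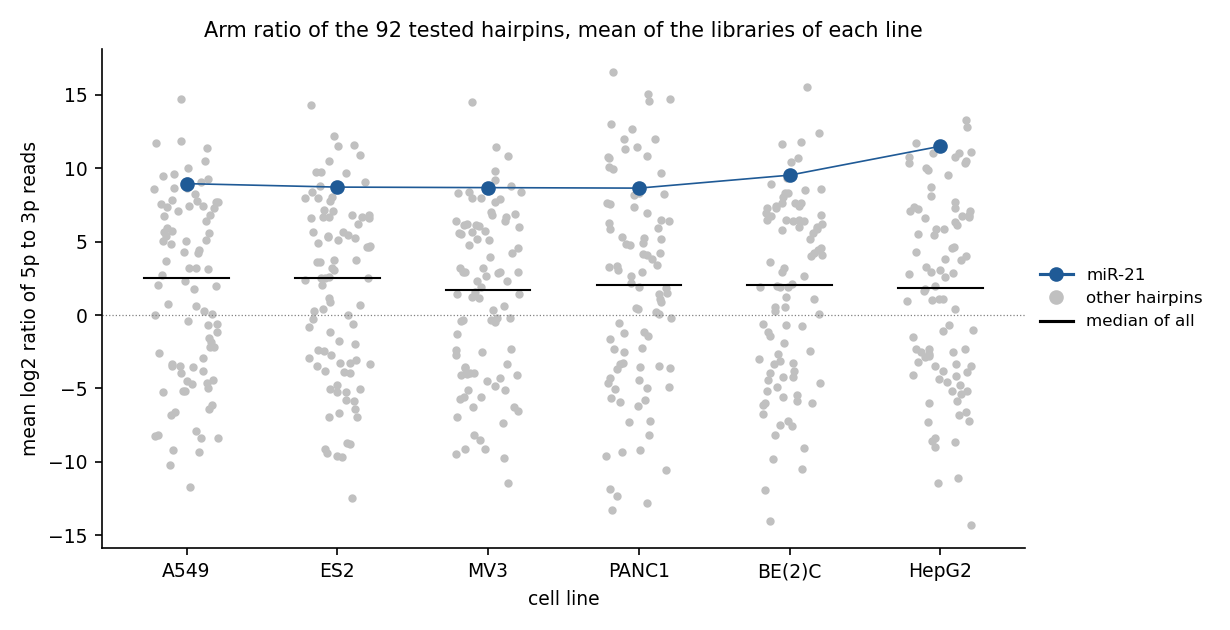
Mean log2 ratio of 5p to 3p reads in each line for the 92 tested hairpins (grey points, jittered sideways), their median (black bar) and miR-21 (blue). MiR-21 runs near 9 in the NEXTflex lines and reaches 11.50 in HepG2, where it ranks 4 of 92, while the median of all hairpins lies between 1.73 and 2.54.

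Other miRNAs followed the arms across the lines to differing degrees. Over the 6 line means of log2(CPM + 1), the miRNAs most like miR-21-5p among 545 were miR-182-5p (Pearson r = 0.97), miR-96-5p (0.97), miR-455-3p (0.96), miR-183-5p (0.95) and miR-28-3p (0.91). MiR-182, miR-96 and miR-183 come from 1 shared cluster on chromosome 7. The same 5 led with TMM factors. The other arm of miR-21 came 6th, with r = 0.91 on CPM and 0.89 with TMM factors. For miR-21-3p the closest were miR-31-5p (0.96), miR-28-5p (0.96), miR-221-3p (0.94), miR-222-3p (0.93) and miR-183-3p (0.93), of which miR-28-5p, miR-221-3p and miR-222-3p stayed among the first 5 with TMM factors, where miR-423-5p led (0.96). With 6 points, which share libraries and preparation, these values only describe likeness. A line far below the rest weighs heavily in them. MiR-182-5p, like miR-21-5p, was lowest in BE(2)C (33.1 CPM, against 1974 to 6314 CPM in the other lines), but it was highest in PANC1 and had 4232 CPM in A549. Correlations without BE(2)C were not computed.

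Near the gene, 6 other miRNA genes are annotated within 2000000 bases, and 8 of their mature miRNAs are listed. MiR-454-3p, from a gene 703394 bases away on the other strand, ranged from 24.1 CPM in HepG2 to 1607 CPM in MV3 and had 157 CPM in BE(2)C. MiR-301a-5p, from the gene beside it, was highest in BE(2)C (101 CPM), the line with the lowest miR-21-5p. MiR-142-3p and miR-142-5p, known from blood cells, had 306 and 147 CPM in ES2 and at most 1.45 CPM as a mean in the other lines, and miR-4736 and miR-4737 had 0 reads. None of these followed the order of miR-21-5p.

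A list of 16 other miRNAs often called oncogenic was set beside miR-21, and 14 of them passed the filter on low values. Against ES2, where both arms of miR-21 were higher in A549, 2 of the 14 were higher in A549 and 10 lower on CPM, with 23.6% and 26.9% of all miRNAs; with TMM factors there were 3 and 10, with 26% and 21.2% of all. Against MV3, 0 were higher and 12 lower (20% and 37.4% of all), and with TMM factors 2 and 9 (26.9% and 21.1%). Against PANC1, 0 were higher and 2 lower (11.9% and 31.9%), and with TMM factors 3 and 1 (18.3% and 17.8%), so that the balance of this last pair turned with scaling. The median list member stood at -2.09, -2.02 and -0.38 on the log2 scale in these comparisons, where the median of all miRNAs stood at -0.17, -0.47 and -0.61. With TMM factors the list medians were -1.77, -1.22 and 0.35, that of PANC1 turning sign, and the median of all was 0 in each, again a tie. Examples are miR-155-5p, known from lymphocytes and lymphoma, at 23.0 CPM in A549 and 7927 CPM in ES2, and miR-222-3p, a repressor of the cell cycle inhibitor p27, at 8733 CPM in A549 and 56476 CPM in ES2. MiR-31-5p had 8852 CPM in A549 and 2730 CPM in ES2. The lead of miR-21 in A549 was thus not shared by most listed miRNAs when A549 was set against ES2 or MV3. On CPM this is partly fixed by the total, since the large miR-21-5p share in A549 leaves less for other miRNAs. With TMM factors, which do not hold the total fixed, more listed miRNAs were still lower than higher in both comparisons. The listed miRNAs are not independent, however. MiR-17-5p, miR-18a-5p, miR-19a-3p, miR-19b-3p, miR-20a-5p and miR-92a-3p belong to a shared cluster, and miR-221-3p and miR-222-3p to another. All of these had a lower mean CPM in A549 than in ES2 and MV3, so the counts and medians rest on fewer loci than miRNAs.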

How the data were processed

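Small RNA-seq of 11 libraries from 6 cell lines was used. Per the submitters' processing notes, cutadapt 1.14, Bowtie2 2.3.2, SAMtools 1.5, featureCounts 1.5.3, edgeR 3.30.3 and the build hg38 were employed. The authors deposited 1 table of CPM-like values per line, which is CPM for PANC1 and, for the other lines, a signal that does not sum to 1000000 and matches CPM divided by a factor set within the table; 100% of values were whole multiples of 1 read (tolerance 0.01 read). Whole reads were recovered, copies of a mature miRNA summed, and CPM recomputed. How reads matching several places were counted is not given in the sources used here. No other per-sample columns were present.

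Levels were tested with limma 3.58.1 on log2(CPM + 1) (trend, Benjamini-Hochberg, threshold 0.05) for 546 miRNAs, those whose mean reached 10 CPM in some line. Arm ratios were tested with limma on log2 ratios (0.5 read added to each arm) for 92 of 838 hairpins. In these, both arms together had a mean of at least 100 CPM and at least 20 reads per library. The single miR-21 ratio was also tested with an exact permutation test of the F statistic (upper tail, whereas the limma contrasts are two-sided). All 15 pairs were tested and p-values adjusted over features. TMM factors and the count test came from edgeR 4.0.16, size factors and another count test from DESeq2 1.42.0. The fits were tested on simulated data; there, every arm ratio called in error belonged to a hairpin with few reads of an arm, so hairpins with at least 50 reads of each arm in every library were also fitted alone. The study names its replicates biological, while the labels do not say whether they came from separate cultures; p-values measure the spread between these samples. Members, lists and tests were chosen with earlier results of these data known. Named are both arms, the leading miRNAs of each line, seed sharers, miRNAs within 2000000 bases of MIR21, the 5 miRNAs most like each arm, an oncogenic list and tissue markers. In the text, passed means an adjusted p under 0.05. Alternatives were other scalings and tests, pseudocounts, filters, the replicate number as a block, each library left out in turn and, added after seeing the data, the deposited values and the filter on reads of each arm.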

Additional observations from a re-analysis of the deposited data

Results flagged for a closer look

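The ratio of the arms of miR-21 differed between the 6 lines by a test of the difference itself (adjusted p = 0.00302, limma over 92 hairpins), from 400.3 miR-21-5p reads for each miR-21-3p read in PANC1 to a mean of 2897 in HepG2. As 73.9% of the hairpins passed the same test, passing it does not set miR-21 apart. Within the NEXTflex lines no difference was detectable (adjusted p = 0.845, limma). For HepG2 against the NEXTflex lines, the preparation and the line itself cannot be told apart.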

How the results depend on the processing

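Differences are log2 values, line named first minus line named second; the cause of the changes was not tested unless stated. Over 34 results on levels, 421 of 472 refits kept direction and side of the threshold, and over 17 on arm ratios 140 of 151 did. Under every setting run, the F tests of both arms passed, BE(2)C stayed lowest for both arms, and A549 stayed above ES2, MV3 and PANC1 for miR-21-5p. Neither pseudocount, nor omitting the filter, nor the deposited values changed a call for a level of miR-21.

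For miR-21-5p, A549 minus HepG2 was -0.62 with TMM factors, -0.69 with DESeq2 size factors (-0.691), -0.69 by edgeR's quasi-likelihood test, -0.64 by DESeq2 (-0.642) and 0.34 (0.341, adjusted p = 0.0813, limma) with totals that left out the 10 most abundant miRNAs. MiR-21-5p is itself 1 of these 10, so that setting scales it by a total without its own reads. In the same order of settings, ES2 minus HepG2 was -2.16, -2.54, -2.18, -2.52 and -1.32, MV3 minus HepG2 -2.41, -2.73, -2.47, -2.70 and -1.38, PANC1 minus HepG2 -2.30, -2.42, -2.33, -2.38 and -1.42, and ES2 minus MV3 0.245, 0.188, 0.291, 0.184 and 0.0534. ES2 minus PANC1 was 0.138 with TMM factors, 0.149 by edgeR and 0.0956 without the 10 miRNAs, and MV3 minus PANC1 was 0.0422 without them. The differences among ES2, MV3 and PANC1 passed under no setting.

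For miR-21-3p, ES2 minus MV3 was 0.208, 0.151, 0.257, 0.148 and 0.0174 in that order. ES2 minus PANC1 was 0.0677 with TMM factors, 0.0802 by edgeR and 0.0254 without the 10 miRNAs, and MV3 minus PANC1 0.00801 without them. ES2 minus HepG2 lost its call with DESeq2 size factors (0.247), by edgeR (0.611) and by DESeq2 (0.265), MV3 minus HepG2 with TMM factors (0.413), DESeq2 size factors (0.0953), edgeR (0.354) and DESeq2 (0.117), and PANC1 minus HepG2 with DESeq2 size factors (0.433) and edgeR (0.531).

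Leaving out each library in turn gave 0.542 to 0.730 for miR-21-5p in ES2 minus HepG2, 0.534 to 0.747 for miR-21-3p in A549 minus PANC1, and for the arm ratio -0.0155 to 0.0879 in ES2 minus MV3, -0.0182 to 0.0853 in MV3 minus PANC1 and -2.0 to -1.94 in BE(2)C minus HepG2. With 5 reads added to each arm, ES2 minus BE(2)C (-0.765, adjusted p = 0.0480, limma) and MV3 minus BE(2)C (-0.802, adjusted p = 0.0441, limma) passed. With at least 50 reads of each arm in every library, BE(2)C passed against A549 (-0.578), ES2 (-0.813), MV3 (-0.849) and PANC1 (-0.883), the differences themselves being unchanged because the ratios are.

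With the replicate block, miR-21-3p in A549 minus PANC1 was 0.627 and no longer passed (adjusted p = 0.0565, limma), and no other call for miR-21 changed. Whether shared numbers pair the libraries was not settled. Correlations of deviations between lines were low, from -0.05 to 0.11, and over 0.1 in 1 of 10 pairs of lines. Yet 8 of 10 libraries correlated best with one of their own number, a hint from the data only. The block took the miRNAs passing over 6 lines from 542 to 535 and the hairpins passing within the NEXTflex lines from 16 to 9; these were 44 with 5 reads added and 6 without MV3 replicate 1 or 2. On the recovered reads 523 miRNAs passed over 6 lines by edgeR and 477 by DESeq2. Without a filter 837 did, and with a looser arm filter 119 hairpins instead of 68, more features being tested in both; with at least 50 reads of each arm, 15 of 15 hairpins passed.

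Precision was limited by 2 libraries per line, 1 in PANC1, and by 112 and 127 miR-21-3p reads in BE(2)C.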
